A study of Mus musculus with 5 samples.

Results

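Molecular chaperones are proteins that help other proteins fold, and 78 of their genes were examined for CREB and H3K4 peaks in the mouse fetal testis. The members were all protein-coding genes of the mm10 RefSeq annotation whose symbols name a J-domain protein (Dnaja, Dnajb, Dnajc), a heat shock protein (Hspa, Hspb, Hspd, Hspe, Hsph, Hsp90a) or a subunit of the cytosolic chaperonin (Cct, Tcp1). They were 78 of 21887 protein-coding genes on the assembled chromosomes, after Dnajb9, Dnajc3 and Hspa5, genes of the endoplasmic reticulum stress response, had been left out. The rule uses symbols and no measured value, but it was set with earlier results of these data known. A member was counted with a peak when any peak of a list overlapped the 1000 bp on either side of one of its gene ends.

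The peaks came from CUT&RUN, in which an antibody brings a nuclease to a protein on chromatin so that the DNA around it is cut out and sequenced, and male gonads were dissociated whole, with no cell type selected and no strain or treatment named in the labels. The groups were CREB at E13.5, E16.5 or E18.5 (E, embryonic day) and H3K4 at the last of these stages, each with 1 library, so no difference below has a replicate check and none was tested. The labels name H3K4 without a methylation state, and an IgG library of the series was not analysed here. The lists held 862, 3528, 2957 and 21211 peaks, nearly all 150, 630, 160 and 210 bp wide in that order, with no score and no read depth, so a peak missing from a list does not show that the protein was absent. At E18.5, H3K4 peaks lay at the gene ends of 3 of 3 Sertoli cell markers (Sox9, Amh, Dhh), 2 of 5 Leydig cell markers, 1 of 3 germ cell markers, 2 of 3 endothelial markers, 1 of 3 blood cell markers and both ovarian granulosa cell markers looked up (Foxl2, Fst), so these peaks did not separate the labelled tissue from other cell types.

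CREB is a transcription factor that binds the cAMP response element (CRE) and is phosphorylated by protein kinase A when cAMP rises. Chaperones work in linked systems. Hsp70 proteins bind exposed stretches of unfolded chains, J-domain proteins bring clients to Hsp70 and stimulate its ATPase, Hsp110 proteins exchange its nucleotide, Hsp90 finishes the folding of kinases and steroid receptors, and chaperonins enclose a chain in a ring. Small heat shock proteins hold unfolded clients without ATP. Many of these genes are transcribed in every cell, others are induced by heat shock factor, and some are restricted to muscle, neurons or male germ cells.

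CREB peaks were frequent at chaperone genes at the later stages. At E16.5, 36 of 78 members had one, which is 46.2% (95% Wilson interval 35.5 to 57.1, covering counting error only), beside 14.9% of all protein-coding genes. At E18.5 the count was 30, or 38.5% (28.4 to 49.6), beside 12.9%. At E13.5, where the list is shortest, 7 members had a peak, or 8.97% (4.42 to 17.4), beside 3.94%. An H3K4 peak was present at 63 members, or 80.8% (70.7 to 88.0), beside 52.7% of all genes. The members thus stood above the general share in every list, least clearly at E13.5, where the lower bound of the interval is close to the share of all genes.

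With the whole lists, the difference from all genes was also present among genes that carried an H3K4 peak. Of the 63 members with H3K4, 35 had CREB at E16.5, or 55.6% (43.3 to 67.2) beside 27.0% of all genes with H3K4. At E18.5 it was 30 of 63, or 47.6% (35.8 to 59.7) beside 23.4%, and at E13.5 it was 7 of 63, or 11.1% (5.49 to 21.2) beside 7.2%. With only as many first E18.5 peaks as the E13.5 list holds, the E18.5 count was 5 of 63, or 7.94% beside 7.82%, so the difference was no longer seen. Seen the other way, 38 of the 39 members with a CREB peak at any stage also had H3K4, 97.4% beside 94.9% of all genes with CREB. Dnajc1 was the exception, and its listed start, inside the gene, had H3K4 within 1000 bp. How far promoter activity or base composition of these genes goes with the counts was not tested.

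**Figure D1:**
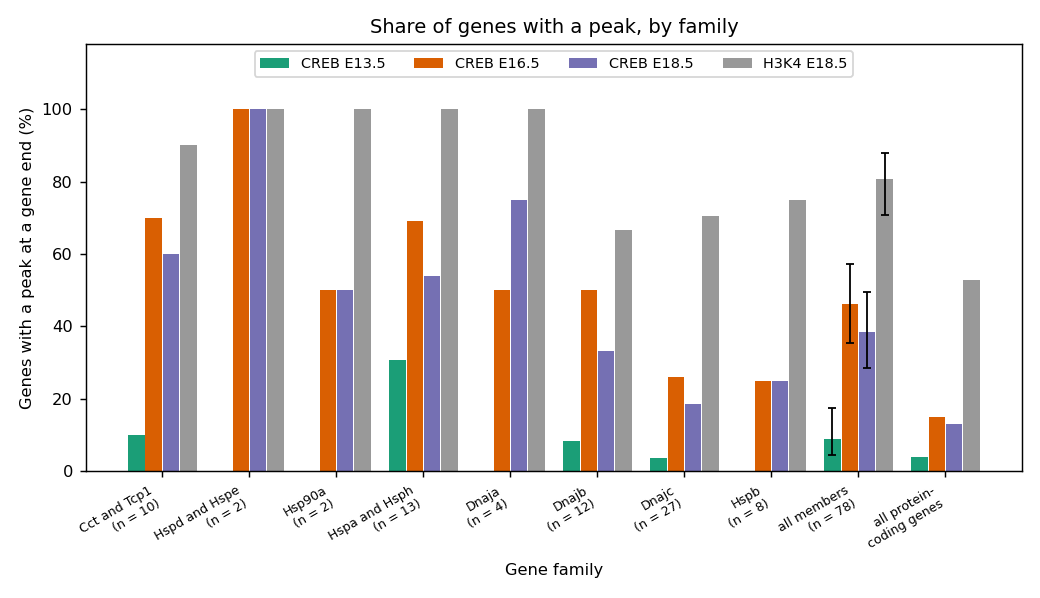
Share of genes with a peak within 1000 bp of a gene end (vertical axis, percent) for each chaperone family, for all 78 members with 95% Wilson intervals, and for all 21887 protein-coding genes; bars are the 4 peak lists. The Cct and Tcp1 bar for E16.5 reaches 70% (7 of 10 genes), while that of Dnajc reaches 25.9% (7 of 27).

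Stages were nested. All 7 members with a peak at E13.5 had one at E16.5 and E18.5 too, so 8.97% of members had CREB at every stage, beside 3.83% of all genes. The E13.5 genes in general were nested too, with 838 of 862 bound at every stage. A further 20 members had a peak at both later stages (25.6%, beside 7.29% of all genes). Another 9 had it at E16.5 alone (11.5%, beside 3.79%) and 3 at E18.5 alone (3.85%, beside 1.69%). The remaining 39 members, or 50% (39.2 to 60.8), had none, beside 83.3% of all genes. Because the E13.5 list is much shorter than the others, fewer bound members at E13.5 and a less complete list cannot be told apart.

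Of the 7 genes with CREB at every stage, 4 belong to the Hsp70 and Hsp110 group. Hspa8 encodes the constitutive cytosolic Hsp70, the most general member of the system. Its peaks were at chr9:40801023-40801172 at E13.5, chr9:40800749-40801378 at E16.5 and chr9:40801025-40801184 at E18.5 (mm10), with midpoints 179, 213 and 172 bp outside the lower gene end. They stood in positions 267, 556 and 257 of their lists. The order of peaks in the files is not explained by any source used here and is given as it stands.

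Hspa4, an Hsp110 relative that acts as nucleotide exchange factor, had midpoints 171, 127 and 119 bp outside its start, in the order of the stages, and list positions 268, 599 and 579. Hspa14, a ribosome-associated Hsp70, had them 157, 157 and 146 bp outside, in positions 385, 482 and 321, and its neighbour Cdnf lay within 1000 bp of the same peaks. Both genes had the peak in nearly the same place at every stage. Hspa2, an Hsp70 of male germ cells needed for meiosis in spermatocytes, was different in position. Its midpoints were 380, 370 and 330 bp inside the outermost annotated end, which is 178, 188 and 228 bp upstream of the start site that RefSeq lists for it. Its E13.5 peak was number 859 of 862, and the later ones were in positions 1201 and 1239.

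The others with CREB at every stage were Cct6a, Dnajb11 and Dnajc17. Cct6a encodes a chaperonin subunit and had the earliest peaks of all members at E13.5 and E16.5, in positions 105 and 116 (168 at E18.5), with midpoints 212, 235 and 213 bp outside its start. Psph, a serine synthesis gene, lay within 1000 bp of the same peaks. Dnajb11 encodes a J-domain protein of the endoplasmic reticulum that works with Hspa5, so it is close in function to the genes left out. Its midpoints were 145, 155 and 205 bp outside the start, in positions 205, 401 and 142, and Tbccd1 shared the peaks. Dnajc17, a J-domain protein linked to splicing, had midpoints 87, 94 and 61 bp inside its outermost end, in positions 784, 3273 and 897, near the end of the E13.5 and E16.5 lists, and Zfyve19 shared these peaks. The nearest protein-coding end was that of the neighbour for Dnajb11 and Hspa14.

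The promoters of 6 of these genes are in the RefSeq table (GRCm38.p6, the sequence of mm10), and each overlapped a CREB peak at all 3 stages. They are printed because they are the chaperone promoters with the most repeated CREB signal, from 250 bases before to 50 after the start, 5′ to 3′ on the gene's strand. Capitals mark TGACG, the core of the CRE, or its reverse complement CGTCA. The regions are chr5:129787106-129787405 (plus strand) for Cct6a, chr16:22857595-22857894 (plus) for Dnajb11, chr2:119208746-119209045 (minus) for Dnajc17, chr2:3512765-3513064 (minus) for Hspa14, chr12:76404120-76404419 (plus) for Hspa2 and chr11:53300430-53300729 (minus) for Hspa4.
Cct6a: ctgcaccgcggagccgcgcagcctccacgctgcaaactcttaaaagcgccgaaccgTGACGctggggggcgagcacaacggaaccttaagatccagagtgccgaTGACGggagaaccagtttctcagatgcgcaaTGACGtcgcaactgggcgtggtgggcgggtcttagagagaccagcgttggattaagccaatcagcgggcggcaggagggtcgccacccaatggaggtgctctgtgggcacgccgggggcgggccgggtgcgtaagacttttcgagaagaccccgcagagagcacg
Dnajb11: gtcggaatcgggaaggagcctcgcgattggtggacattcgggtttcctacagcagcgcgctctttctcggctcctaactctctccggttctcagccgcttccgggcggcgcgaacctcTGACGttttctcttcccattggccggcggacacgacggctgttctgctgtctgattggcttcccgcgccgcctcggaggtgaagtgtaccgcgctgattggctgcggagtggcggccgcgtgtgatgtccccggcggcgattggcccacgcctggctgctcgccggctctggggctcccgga
Dnajc17: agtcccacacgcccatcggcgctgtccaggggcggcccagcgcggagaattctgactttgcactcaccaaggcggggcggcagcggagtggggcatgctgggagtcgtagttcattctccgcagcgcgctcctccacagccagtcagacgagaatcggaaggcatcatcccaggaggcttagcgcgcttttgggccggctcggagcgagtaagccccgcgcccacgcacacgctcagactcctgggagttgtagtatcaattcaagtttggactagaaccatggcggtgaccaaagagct
Hspa14: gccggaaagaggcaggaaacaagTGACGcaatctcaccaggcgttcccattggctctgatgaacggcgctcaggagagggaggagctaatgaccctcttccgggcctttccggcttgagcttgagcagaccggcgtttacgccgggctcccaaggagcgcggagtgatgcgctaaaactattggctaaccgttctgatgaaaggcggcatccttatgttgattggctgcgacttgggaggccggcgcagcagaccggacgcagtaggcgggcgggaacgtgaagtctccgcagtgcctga
Hspa2: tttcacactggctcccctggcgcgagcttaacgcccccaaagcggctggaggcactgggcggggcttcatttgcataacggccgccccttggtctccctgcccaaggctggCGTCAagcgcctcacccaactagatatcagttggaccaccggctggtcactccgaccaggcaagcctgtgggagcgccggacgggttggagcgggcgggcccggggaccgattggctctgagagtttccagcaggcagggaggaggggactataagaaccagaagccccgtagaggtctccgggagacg
Hspa4: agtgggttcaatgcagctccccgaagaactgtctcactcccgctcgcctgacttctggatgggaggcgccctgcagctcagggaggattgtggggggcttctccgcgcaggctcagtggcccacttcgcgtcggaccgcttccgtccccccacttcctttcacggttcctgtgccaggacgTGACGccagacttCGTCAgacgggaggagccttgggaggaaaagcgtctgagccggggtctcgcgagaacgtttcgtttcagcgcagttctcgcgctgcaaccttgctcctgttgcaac

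The Cct6a promoter holds 3 such matches, Hspa4 holds 2, Dnajb11, Hspa14 and Hspa2 hold 1 each and Dnajc17 holds none. With positions counted from the start site, negative before it, the Cct6a matches at -194 and -146 lay inside the CREB peak of every stage, as did the Dnajb11 match at -132. The Cct6a match at -115 lay inside the wide E16.5 peak alone. In Hspa4 both, at -69 and -56, lay outside the E13.5 peak and inside the later ones. In Hspa14 and Hspa2 the match lay inside the peaks of the first 2 stages. At E18.5 the Hspa2 match lay outside the peak, and the Hspa14 match straddled its edge, with 4 of 5 bases inside. None of the 6 holds the full palindromic CRE, TGACGTCA.

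The cytosolic chaperonin folds actin and tubulin inside a double ring, and each ring has 8 different subunits. CREB peaks lay at 6 of these 8 genes at both later stages (Tcp1, Cct2, Cct3, Cct4, Cct6a, Cct7), at Cct6a alone at E13.5, and all 8 had H3K4. Of all genes, 14.9% had CREB at E16.5, 12.9% at E18.5 and 3.94% at E13.5, and 52.7% had H3K4. The list of ring subunits was chosen after their values were seen. At Cct4 the midpoints were 39 and 12 bp outside the gene end at the later stages in order, at Tcp1 56 and 69 bp outside, at Cct3 105 and 88 bp outside, and at Cct2 136 and 71 bp inside. These 4 genes had the peak in nearly the same place at both stages. At Cct7 it moved by 316 bp, from 229 bp inside to 87 bp outside. Tsacc and Pradc1 lay within 1000 bp of the same peaks at Cct3 and Cct7, and at Cct3 the end of the neighbour was the nearer one. Apart from Cct6a, the subunit peaks stood in the middle or late parts of the lists, between positions 1588 and 2879 of 3528 at E16.5 and between 1263 and 2579 of 2957 at E18.5.

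Cct5 and Cct8 were the ring subunits without CREB. The nearest CREB midpoint lay 366496 bp from Cct5 (E18.5) and 42915 bp from Cct8 (E16.5). H3K4 midpoints lay 664 and 332 bp from their ends. An H3K4 peak overlapped the Cct8 promoter, while the H3K4 peaks of Cct5 lay outside its listed promoters. Atpsckmt lay within 1000 bp of the Cct5 peaks, and with windows of 500 bp Cct5 had no H3K4 peak. Of the 2 further genes in this family, Cct6b, a testis-type paralogue of Cct6a, had CREB at E16.5 alone, 82 bp inside its end. Zfp830 shared that peak, and the end of Zfp830 was the nearer one. Cct8l1 had no peak at a gene end in any list. The promoters of Cct5 (outer start, chr15:31601797-31602096, minus) and Cct8 (chr16:87495820-87496119, minus) are shown as those of the unbound ring subunits, with the same marking, and hold no TGACG on either strand, nor does the inner Cct5 promoter. The motif does not separate them from the bound subunits, since 4 of the 5 bound ones with a promoter sequence (Cct2, Cct3, Cct7, Tcp1) also lack it and Cct6a alone holds it.
Cct5: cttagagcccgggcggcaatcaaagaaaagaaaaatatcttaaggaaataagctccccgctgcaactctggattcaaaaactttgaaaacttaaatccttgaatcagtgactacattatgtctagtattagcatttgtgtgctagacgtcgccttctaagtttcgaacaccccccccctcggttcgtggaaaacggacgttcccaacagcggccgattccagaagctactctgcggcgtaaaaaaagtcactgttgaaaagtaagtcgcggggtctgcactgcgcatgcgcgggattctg
Cct8: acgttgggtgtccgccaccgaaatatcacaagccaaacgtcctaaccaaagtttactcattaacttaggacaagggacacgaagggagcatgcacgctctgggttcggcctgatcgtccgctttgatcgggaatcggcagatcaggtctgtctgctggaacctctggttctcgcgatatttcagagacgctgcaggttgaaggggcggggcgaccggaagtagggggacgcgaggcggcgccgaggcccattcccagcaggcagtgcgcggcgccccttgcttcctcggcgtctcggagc

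The mitochondrial chaperonin is made of Hspd1 (Hsp60) and Hspe1 (Hsp10), whose genes start back to back. A single CREB peak per stage lay at both, at chr1:55087853-55088482 (E16.5) and chr1:55088109-55088268 (E18.5), in list positions 2019 and 1509. Its midpoint lay 76 and 55 bp inside the end of Hspd1 and 19 and 40 bp inside that of Hspe1, so these are 2 members and 1 peak. The Hspe1 promoter (chr1:55087898-55088197, plus) covers the shared region and is printed for that reason. Its CGTCA, at -36 from the Hspe1 start and at -184 from the inner of the listed Hspd1 starts, lay inside both peaks.
Hspe1: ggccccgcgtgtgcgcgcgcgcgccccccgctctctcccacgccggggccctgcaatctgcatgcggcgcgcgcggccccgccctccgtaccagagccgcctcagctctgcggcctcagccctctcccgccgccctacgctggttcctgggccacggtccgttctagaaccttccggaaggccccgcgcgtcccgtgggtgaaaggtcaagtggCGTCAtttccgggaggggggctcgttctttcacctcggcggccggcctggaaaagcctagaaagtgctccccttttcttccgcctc

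Among the mitochondrial Hsp70 and J-domain genes named here, some had CREB and others did not. Of all genes, 14.9% had CREB at E16.5 and 12.9% at E18.5. Hspa9, the mitochondrial Hsp70, had CREB at both later stages, with midpoints 63 and 357 bp outside its end and late list positions of 3021 and 2791. Dnaja3, a mitochondrial J-domain protein, had CREB at E18.5 alone, 114 bp outside its start in position 2600, and an H3K4 peak with its midpoint 2 bp from that of CREB. Dnajc30, also mitochondrial, had CREB at both later stages, 90 and 103 bp outside its lower end, shared with Bud23. Dnajc19, which acts at the mitochondrial import motor, and Dnajc11 and Dnajc15, also of mitochondria, had H3K4 without CREB.

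Hspa1a and Hspa1b, the heat-inducible Hsp70 genes, and their neighbour Hspa1l, an Hsp70 gene of the testis, had CREB at E16.5 alone. The peak at chr17:34972107-34972736 spanned the gap between Hspa1a and Hspa1l, with its midpoint 265 and 282 bp outside their starts, and counts for both, and that of Hspa1b lay 361 bp outside its start. The nearest CREB midpoints at E13.5 and E18.5 were 38212 and 38106 bp from Hspa1a, and 25282 and 25176 bp from Hspa1b. The promoters of Hspa1a and Hspa1b are identical at 296 of 300 bases in an ungapped comparison, so reads could be placed at either copy, and how such reads were handled is not given in the sources used here. The E16.5 peaks are the widest, and these 3 genes kept theirs when every peak was set to 150 bp.

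The Hspa1a promoter (chr17:34972107-34972406, minus) is shown as the classic heat-inducible one. Here capitals mark a pair of inverted heat shock units, GAANNTTC or TTCNNGAA, and not the CRE.
Hspa1a: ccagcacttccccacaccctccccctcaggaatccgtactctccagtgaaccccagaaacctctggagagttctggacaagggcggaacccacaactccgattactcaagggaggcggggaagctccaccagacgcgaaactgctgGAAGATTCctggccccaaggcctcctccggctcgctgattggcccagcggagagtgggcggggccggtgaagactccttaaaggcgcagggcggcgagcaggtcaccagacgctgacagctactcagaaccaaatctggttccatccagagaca

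Hsph1, the heat-inducible Hsp110, had CREB at E18.5 alone, 116 bp outside its 5′ end and in list position 2648, with the nearest E16.5 midpoint 563721 bp away. Hspa13, an Hsp70 of the endoplasmic reticulum, had CREB at both later stages, 310 and 384 bp inside its end. Hspa12a, Hspa12b and Hspa4l had H3K4 without CREB. All 13 genes of this group had H3K4, and CREB was at 9 of them at E16.5 and 7 at E18.5. All protein-coding genes stood at 52.7%, 14.9% and 12.9% in the same order. Cytosolic Hsp90 has a pair of genes, which differed. Hsp90ab1, the constitutive form, had CREB 495 bp outside its upper end at E16.5 and 235 bp outside at E18.5, in positions 1236 and 2608. Hsp90aa1, the inducible form, had H3K4 at 427 bp and no CREB midpoint nearer than 99472 bp at any stage.

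J-domain proteins make up 43 of the members. Of the 4 Dnaja genes, which act with cytosolic or mitochondrial Hsp70, 2 had CREB at E16.5 and 3 at E18.5. At these stages 14.9% and 12.9% of all genes had CREB. Dnaja1 and Dnaja2, the general cytosolic forms, had it at both of these stages, 244 and 231 bp outside the start for Dnaja1 (Aptx shared the peaks) and 80 and 91 bp outside for Dnaja2. Dnaja4 had H3K4 only. Of 12 Dnajb genes, 6 had CREB at E16.5 and 4 at E18.5. Dnajb1, the heat-inducible Hsp40, had midpoints 63 and 51 bp inside its start, Dnajb5 81 and 72 bp outside, and Dnajb6, which suppresses aggregation of polyglutamine chains, 56 bp inside and 130 bp outside. Each of these 3 had peaks at both later stages.

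Dnajb2 and Dnajb4, the latter with the nearer end of Fubp1 at the same peak, had CREB at an annotated end at E16.5 alone. For Dnajb4 this depended on the annotation, because the E18.5 list had a peak 41 bp upstream of a second listed start inside the gene, 12306 bp from the nearest gene end, and the E16.5 list had another peak 18 bp downstream of that start. Dnajc1, a J-domain protein of the endoplasmic reticulum membrane, was similar. Its E16.5 midpoint lay 1268 bp inside the outermost end and counted only through the width of the peak, and its E18.5 midpoint lay 1345 bp inside and was not counted, yet the first lay 1 bp upstream of the listed start and the second at -76 bp (negative, downstream). Both genes would join the E18.5 count if listed starts were used.

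The Dnajc genes, a mixed group that shares only the J domain, had smaller shares with CREB at the later stages than the Dnaja and Dnajb genes, which was not tested. Of 27, 7 had CREB at E16.5 (25.9%, beside 14.9% of all genes), 5 had it at E18.5, where 12.9% of all genes did, and 19 had H3K4 (70.4%, beside 52.7%). Besides Dnajc17, both later stages had CREB at Dnajc14, Dnajc16 and Dnajc30. At Dnajc14 the E18.5 list had peaks 302 bp outside and 565 bp inside the gene end, on either side of an H3K4 midpoint 10 bp outside it. Tmem198b shared the CREB peaks of Dnajc14. At Dnajc16 the midpoints were 180 and 243 bp outside. Dnajc7, a co-chaperone of Hsp90 and Hsp70, had CREB at E16.5 alone, 393 bp inside its end with Nkiras2 sharing the peak. Its position, 3442, was the last of all members in that list. Dnajc27 also had CREB at E16.5 alone, and Dnajc4 at E18.5 alone, 10 bp outside its start with Nudt22 sharing the peak. H3K4 without CREB was found at 12 Dnajc genes, among them Dnajc2 of the ribosome, Dnajc6 of clathrin uncoating, Dnajc8 of the spliceosome and Dnajc10 of the endoplasmic reticulum.

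Dnajc27 was the 1 member of 63 with a promoter sequence that held the full CRE. The match began at -16 from the start and lay inside the E16.5 peak at chr12:4082467-4083096, which was in position 2360. The nearest E13.5 and E18.5 midpoints were 793138 and 655807 bp from the gene. The promoter (chr12:4082324-4082623, plus) is printed with the full CRE in capitals.
Dnajc27: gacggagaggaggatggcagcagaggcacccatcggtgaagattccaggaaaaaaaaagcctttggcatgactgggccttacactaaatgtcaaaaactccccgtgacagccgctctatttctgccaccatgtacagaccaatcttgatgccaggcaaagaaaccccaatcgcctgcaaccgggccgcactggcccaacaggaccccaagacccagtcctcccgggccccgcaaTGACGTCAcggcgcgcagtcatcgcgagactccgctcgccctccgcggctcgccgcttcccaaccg

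Of the 8 genes named Hspb, 2 were bound, both at the later stages (25.0% at each, beside 14.9% and 12.9% of all genes). Hspb6 had midpoints 205 bp outside its end at E16.5 and 137 bp outside at E18.5, where a second peak lay 560 bp outside, and Proser3 shared them. The end of Proser3 was the nearer one at both stages. Hspb11, which encodes a component of intraflagellar transport, had them 231 and 165 bp inside, and Lrrc42 shared the peaks. Hspb1, a widely expressed heat-inducible form, had H3K4 144 bp from its end and no CREB midpoint nearer than 45187 bp. Hspb2, Hspb8 and Hspb9 also had H3K4 without CREB, and Hspb3 and Hspb7 had no peak at a gene end in any list.

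In all, 25 members had H3K4 and no CREB, and 14 had no peak at a gene end in any list. Among genes with a promoter sequence, 20 of 63 members were in the first class, beside 6333 of 17492 of all genes, a slightly smaller share. The share of all genes in the second class was not counted directly. Of 21887 protein-coding genes, 18231 had no CREB peak at any stage and 11534 had an H3K4 peak. Of the 3656 genes with CREB, 3471 also had H3K4. These counts leave a larger share of all genes than of members with no peak in any list, a difference that was not tested. The 14 were Cct8l1, Dnajb7, Dnajb8, Dnajb12, Dnajb13, Dnajc5, Dnajc5b, Dnajc5g, Dnajc13, Dnajc18, Dnajc22, Dnajc25, Hspb3 and Hspb7. Dnajb8 and Dnajb13 are known from male germ cells or the axoneme of sperm. Other genes named above for germ cells or testis, Hspa2, Cct6b and Hspa1l, had CREB and H3K4 at a gene end. Dnajc13, which acts on endosomes, and Dnajc25 had H3K4 within 1000 bp of their listed starts, at -583 and -710 bp (negative, downstream). Under wider or other windows H3K4 was also counted for Dnajc5, Dnajc18 and Dnajc22, with nearest midpoints 1348, 5371 and 2260 bp from a gene end. The rest of the members with H3K4 and no CREB were Dnajb3, Dnajb14, Dnajc9, Dnajc12, Dnajc21, Dnajc24 and Dnajc28.

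CREB peaks at members sat close to the gene end that starts transcription. Taking for each member the peak nearest to an end, the median distance of its midpoint was 171 bp for the 7 members of E13.5, 168.5 bp for the 36 of E16.5 and 117.5 bp for the 30 of E18.5, beside 124, 130 and 110 bp for all genes with a peak. Within 300 bp lay 85.7%, 83.3% and 86.7% of them, beside 83.5%, 78.1% and 84.4%. Every one of the 6, 30 and 24 members whose strand is known had it at the start and not at the 3′ end. How often this holds for all genes was not counted. The shares within 300 bp were close to those of all genes.

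**Figure D2:**
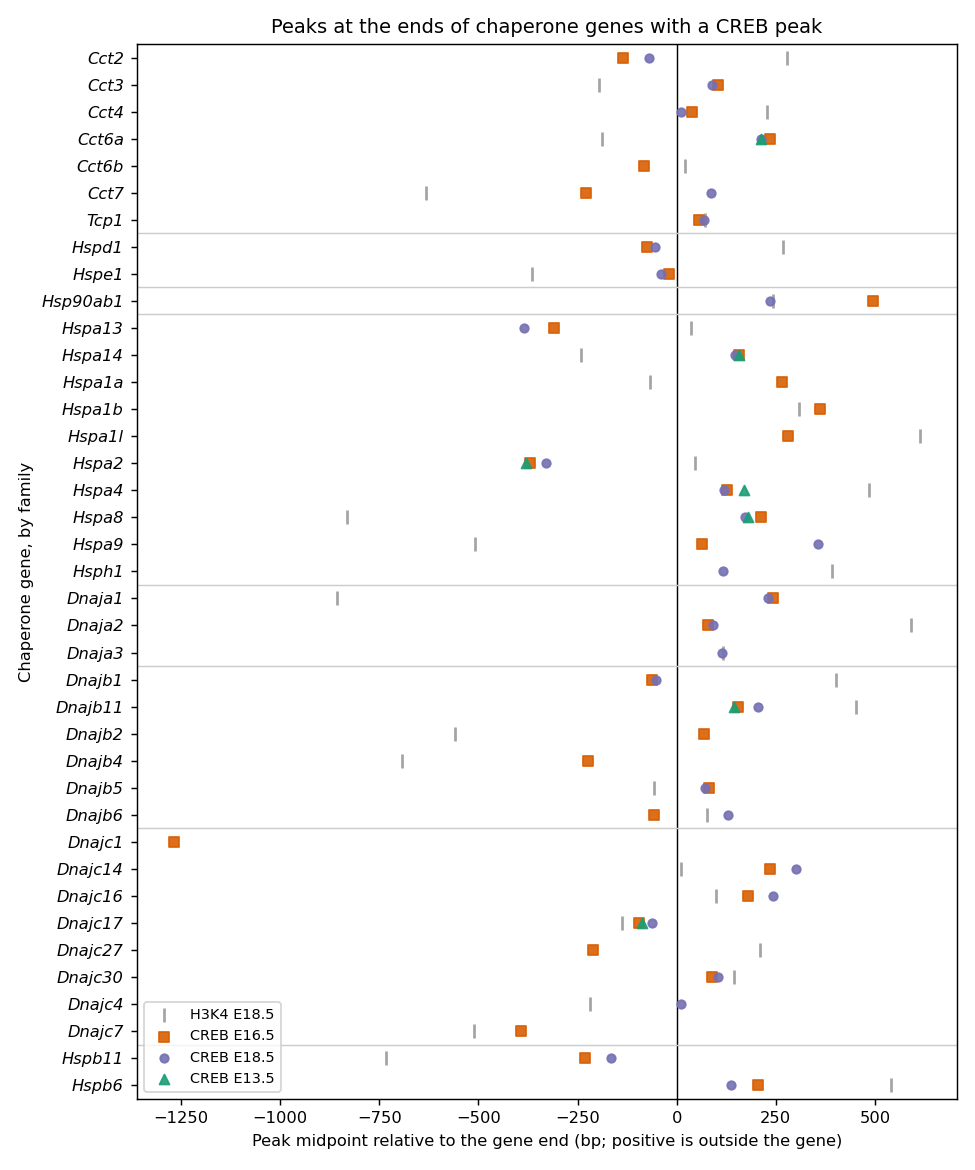
Midpoint of the nearest peak (horizontal axis, bp from the gene end, positive outside the gene) for each of the 39 chaperone genes with a CREB peak (vertical axis, grouped by family); triangles (E13.5), squares (E16.5) and circles (E18.5) are CREB and grey ticks are H3K4. CREB symbols of a gene mostly coincide between stages, and Dnajc1 stands apart at 1268 bp inside its outermost end.

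The peaks of the 27 members bound at both later stages overlapped in every case. The median gap between midpoints was 33 bp (8 to 316 bp), with 23 gaps within 100 bp. These values were not computed for all genes, and the usual E16.5 peak is 630 bp wide. The wider gaps were at Cct7, Hspa9, Hsp90ab1 and Dnajb6. Of the 30 members with CREB at E18.5, 29 had an H3K4 midpoint within 1000 bp of that of CREB (96.7%, beside 94.2% of all genes with CREB at that stage). H3K4 midpoints lay on both sides within that distance for 16 (53.3%, beside 29.4%). An H3K4 peak overlapped the CREB peak for 8 (26.7%, beside 34.8%), of which 3 also had H3K4 on both sides. The 8 included Tcp1, Dnaja3 and Hsp90ab1 with midpoints 2, 2 and 9 bp apart. Dnaja1, 1088 bp from the nearest H3K4 midpoint, was the 1 member outside that distance.

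Many of these peaks were shared with a neighbouring protein-coding gene. Another gene end lay within 1000 bp of the member's peak for 4 of 7 members of E13.5 (57.1%), 18 of 36 of E16.5 (50%) and 14 of 30 of E18.5 (46.7%), beside 44.0%, 38.1% and 37.9% of all genes with a peak. Such a peak cannot be assigned to the chaperone gene alone. Members were not short or long as a group, with a median gene length of 16955.5 bp beside 17169 bp for all genes.

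In the order of the lists, members came earlier than genes in general at E13.5 and later at the other CREB stages. Their median position, as a percentage of list length, was 31.1%, 52.9% and 58.0% from the earliest to the latest stage, beside 50.5%, 43.9% and 45.4% for all genes with a peak. For H3K4 it was 30% beside 38.4%. With only as many first peaks as the E13.5 list holds, 6 members had CREB at E16.5 (7.69%, beside 4.36% of all genes) and 5 at E18.5 (6.41%, beside 4.29%). Most of the members counted at the later stages therefore came from peaks beyond position 862. With the first peaks alone their shares lay much nearer to those of all genes, though fewer peaks lower both shares by construction. The 6 were Cct6a, Dnajb11, Dnajc14, Hspa4, Hspa8 and Hspa14, and the 5 were the same without Dnajc14.

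**Figure D3:**
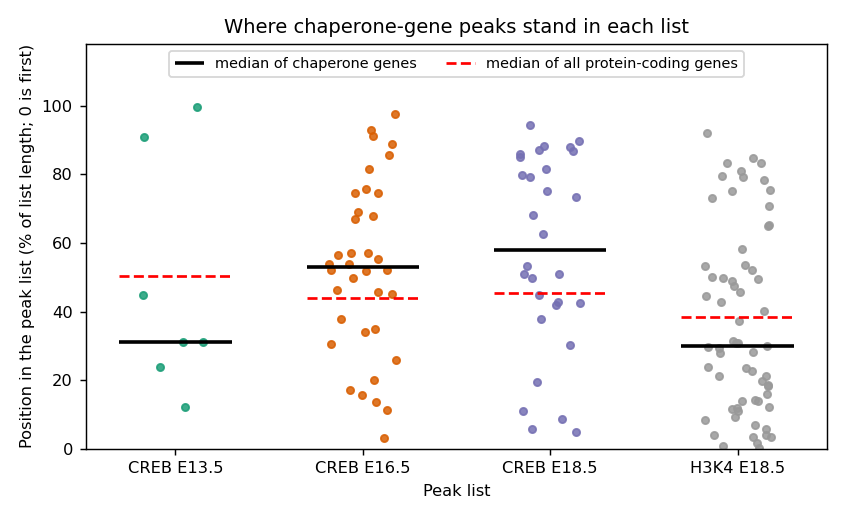
Position of each member's nearest peak in its list (vertical axis, percent of list length, 0 is first) for the 4 lists; each point is a member, black lines are medians of members and dashed red lines medians of all protein-coding genes with a peak. The black line is at 31.1% for E13.5, below the red line, and at 52.9% and 58.0% for the later CREB lists, above it.

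Promoter sequences were available for 63 of the 78 members and 17492 of all protein-coding genes, and motifs were counted per gene if any of its 300-base promoters held one on either strand. The short CRE, TGACG, was found in 52.4% of members beside 26.2% of all genes (23.6% of all 21263 promoters). It was in 20 of 33 members with CREB (60.6%), 9 of 20 with H3K4 and no CREB (45.0%), and in all genes of these classes in 56.9% and 24.5%. The full CRE, which contains the short one on both strands, was in 1 of 33 members with CREB (3.03%) beside 9.9% of all genes with CREB, and in 2.23% of all promoters. Members with CREB thus held the short form about as often as other bound genes, and members without CREB held it more often than other unbound genes with H3K4, a difference that was not tested.

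Where a member with CREB held the short CRE, the whole match lay inside the peak for 4 of 5 members of E13.5, 19 of 19 of E16.5, whose peaks are the widest, and 9 of 15 of E18.5 (10 with the match in Hspa14 that straddles the edge). The usual E16.5 peak, 630 bp, is wider than the 300-base promoter, and the same count was not made for all genes with CREB. The NF-Y box, CCAAT, was in 21 of 33 members with CREB (63.6%) and in 2 of 20 with H3K4 and no CREB (10%), beside 52.3% and 38.0% for all genes and 38.2% of all promoters. The heat shock pair, TTCNNGAA or GAANNTTC, was in 20 of 63 members (31.7%) beside 15.7% of all genes and 13.7% of all promoters, in 36.4% of members with CREB and 25.0% of those with H3K4 and no CREB. Carriers included Hspa1a, Hspa1b, Hsph1, Hspd1, Hspe1, Hspb1 and Dnaja1. The GC box, GGGCGG, was in 81.8% and 80.0% of these members, in 73.0% and 69.2% of all genes of the same classes and in 46.2% of all promoters. The ER stress element, CCAAT and CCACG separated by 9 bases, was in no member, and in 0.141% of all promoters.

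**Figure D4:**
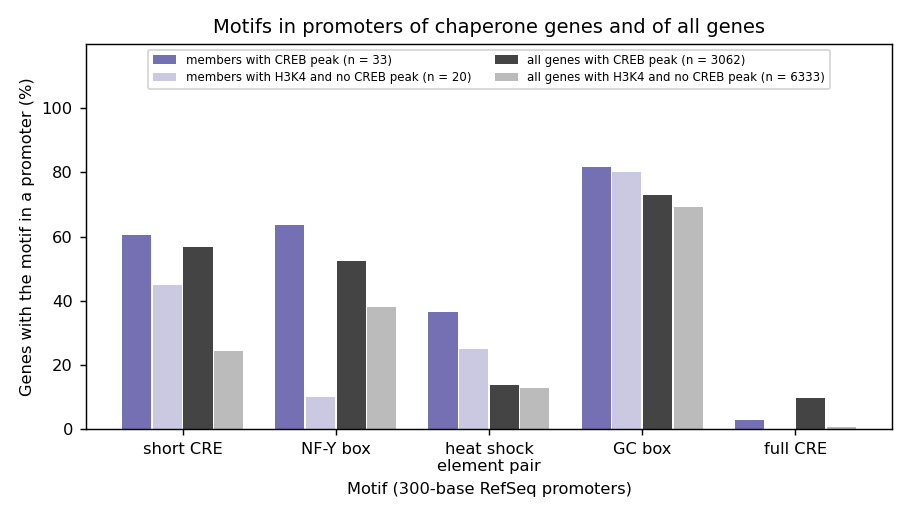
Share of genes with a motif in a 300-base promoter (vertical axis, percent) for members and all genes, each with a CREB peak at any stage or with H3K4 and no CREB. The NF-Y box shows the widest gap among members, 63.6% against 10%, and the heat shock element pair is more frequent in both member classes (36.4% and 25.0%) than in all genes (13.9% and 13.0%).

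Co-chaperones, prefoldin and heat shock factors gave a similar picture outside the member families. Of 44 such genes, listed by role, 4 had CREB at the first stage (9.09%), 15 at E16.5 (34.1%) and 16 at the last (36.4%), and 39 had H3K4 (88.6%). All protein-coding genes stood at 3.94%, 14.9%, 12.9% and 52.7% in the same order. The 4 with CREB at every stage were Clpb, a mitochondrial disaggregase, Hspbp1, an exchange factor of Hsp70, and Sugt1 and Unc45a, which assist Hsp90. Another 8 had it at both later stages, among them Stip1, which links Hsp70 to Hsp90, Stub1, a ubiquitin ligase for chaperone clients, Trap1, the mitochondrial Hsp90, and Grpel1, the exchange factor of Hspa9. None of the 6 prefoldin genes, which hand actin and tubulin to the chaperonin, and none of the heat shock factors Hsf1, Hsf2 and Hsf4 had CREB at a gene end, as was true of 83.3% of all genes, and 4 and 2 of them had H3K4.

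The genes left out of the set had CREB as well. Hspa5, the Hsp70 of the endoplasmic reticulum, had midpoints 178, 194 and 162 bp from its end in stage order, and Dnajb9, its J-domain partner, 153, 201 and 186 bp. Dnajc3 had CREB at E18.5 alone, at 120 bp. These distances are like those of Hspa8, Hspa4 and Dnajb11.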

How the data were processed

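CUT&RUN was done by the authors on 100000 cells of dissociated male gonads per assay, passed through a 70 µm filter, per the labels. The deposited files hold a chromosome, start and end per peak and no score or other value. The build mm10 and the tools MACS2, Bowtie2 (2.5.2) and Trim Galore (0.6.10) are listed in the submitters' processing notes, without settings or control. Groups follow the antibody and stage in each title. The stage of the IgG library differs between its labels, and it was not used.

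Gene ends came from RefSeq for GRCm38.p6, which shares coordinates with mm10, and peaks on unplaced scaffolds were left out. Positions are 1-based, and midpoints are rounded down. Overlap of 1 bp with 1000 bp on either side of an end counted. Strand, start sites and promoter sequences came from the RefSeq promoter table, in which 63 members were found. The members not found were Cct4, Dnajc2, Dnajc5, Dnajc5b, Dnajc11, Dnajc12, Dnajc18, Dnajc22, Dnajc30, Hsp90aa1, Hsp90ab1, Hspa8, Hspa9, Hspa13 and Hspb2. Shares carry 95% Wilson intervals, for counting error only, and the depth of the libraries is unknown. With 1 library per group there is no test and no p-value. Members, gene lists, motifs and named genes (all members by number of stages, and promoters of those bound at every stage plus Cct5 and Cct8) were chosen with earlier results of these data known. The promoters of Hspe1, Hspa1a and Dnajc27 and the list of ring subunits were chosen after their values were seen. Alternatives were windows of 500 and 2500 bp, midpoints, a width of 150 bp, listed starts, gene bodies, the nearest end, first peaks in file order in place of a score threshold, and the 3 genes put back. Python 3.11.15 with numpy 2.4.6, pandas 2.3.3, scipy 1.17.1 and matplotlib 3.10.9 was used, and the overlap code was tested on simulated peaks.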

Additional observations from a re-analysis of the deposited data

How the results depend on the processing

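Of 61 values under 9 alternatives, 57 were within 1.5 times the reported count. The 4 that moved all used only as many first peaks as the E13.5 list holds, which leaves fewer peaks by construction. Under that setting 6 members had CREB at E16.5 and 5 at E18.5, 5 of the members with H3K4 had CREB at E18.5 (7.94%, beside 7.82% of all genes with H3K4), and 70 members had no CREB (89.7%, beside 94.0% of all genes). The count at all 3 stages was then 5 (6.41%, beside 2.63%). Dnajc1 lost its E16.5 peak with windows of 500 bp, midpoints or a width of 150 bp. With each peak given only to the nearest gene end, 28 members had CREB at E16.5 (beside 12.2% of all genes) and 25 at E18.5 (beside 10.6%). With listed starts only, the counts were 30 (38.5%, beside 12.8% of all genes) and 26 (33.3%, beside 11.1%). The 15 members without a listed start could not be counted under that setting. No paired analysis was possible because each group holds 1 library, and no replicate could be left out. The unknown depth limits every statement on a missing peak.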
